A study of Mus musculus with 6 samples.

Results

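Hereditary deafness genes are the mouse counterparts of genes whose inherited mutations cause hearing loss in people, and 49 of them were looked up in the modiolus, the bony core of the cochlea. They were taken by name from a list, and a probe set counted as a gene's only if its annotation gave that 1 gene symbol. A match was found for 45 of the 49, among 18193 genes on the array with such a probe set. Loxhd1, Slc17a8, Cib2 and Ptprq had none and were not analysed here. The matched genes had 75 probe sets, 1 each for 31 genes and several for 14, and the brightest probe set stood for its gene. The genes were sorted by the cochlear site where each is best known to act, which gave 16 matched hair cell genes, 4 genes of the extracellular gels, 5 of epithelia and their junctions, 8 of fibrocytes and the lateral wall, 2 otic development genes and 10 used in many cell types.

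In the study, messenger RNA of the modioli of 6 mice of the strain CBA/CaJ was hybridised to Affymetrix mouse arrays, each mouse to its own, to find receptors in the adult cochlea that stay altered after damage. In the noise-exposed group, 3 female mice of litter 7 heard noise of 5 to 20 kHz at 110 dB SPL for 5 h when they were 4 weeks old. The unexposed group comprised a male of litter 8 (replicate 1), a female of litter 10 (replicate 2) and a male of litter 11 (replicate 3), which stayed in the holding room. Every mouse was killed at 8 weeks, and the modioli of its left and right ear were pooled. All noise-exposed mice and unexposed replicate 1 were dissected on day 1, and the other unexposed mice on day 2. The unexposed arrays share no litter with the noise-exposed ones, so litter and exposure cannot be told apart.

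Hair cells turn sound into current through channels at the tips of their stereocilia and pass the signal to spiral ganglion neurons, whose cell bodies lie in the modiolus. Supporting cells and fibrocytes joined by gap junctions carry potassium away from the hair cells, and the stria vascularis of the lateral wall pumps it back into the endolymph. Mutations at any of these steps can cause deafness, as can those in cytoskeletal and housekeeping proteins that many cells share. The organ of Corti and the lateral wall lie outside the modiolus, which consists mainly of neurons, glia, vessels and bone.

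Values are log2 signals as deposited, on which 1 unit is a doubling, and the authors' cutoff for a usable signal was 4.25. Between 24671 and 25371 probe sets lay above it on each array. Signals of different probe sets depend on their probes and were not ranked against each other as amounts of RNA. The labelled tissue was checked against marker genes. The neuronal exocytosis gene Snap25 had a mean of 13.02 ± 0.09 (SD, n = 6 arrays) and the myelin gene Pmp22 13.24 ± 0.06. Of the neuron markers 8 of 10 lay above the cutoff on every array, as did 4 of 4 Schwann and satellite cell markers. Of the hair cell markers, the transcription factors Atoh1 (mean 2.82 ± 0.12) and Barhl1 (2.84 ± 0.16) lay below the cutoff on every array, Gfi1 and Chrna9 exceeded it on 1 array each, and Tmie and Cabp2 on all 6. Signals of the 6 hair cell markers, summed on the linear scale, were 112 to 145 on the noise-exposed and 107 to 127 on the unexposed arrays.

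The cutoff was passed on all 6 arrays by 23 of the 45 deafness genes, on 1 to 5 arrays by 7 and on none by 15. For the array as a whole these shares were 60.2% of genes on all 6 and 30.1% on none. The sites differed in their counts. Only 3 of 16 hair cell genes were above the cutoff on every array, and 9 were above it on none. By contrast, 9 of 10 genes of many cell types, 6 of 8 genes of fibrocytes and the lateral wall and both otic development genes were above it throughout. The extracellular gels contributed 1 of 4 and the epithelial genes 2 of 5. Among the genes that passed on all arrays, Marveld2 came closest to the cutoff, with 4.41 on its lowest array. Among those that passed on none, Myo3a came closest, with 4.20 on its highest.

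**Figure D1:**
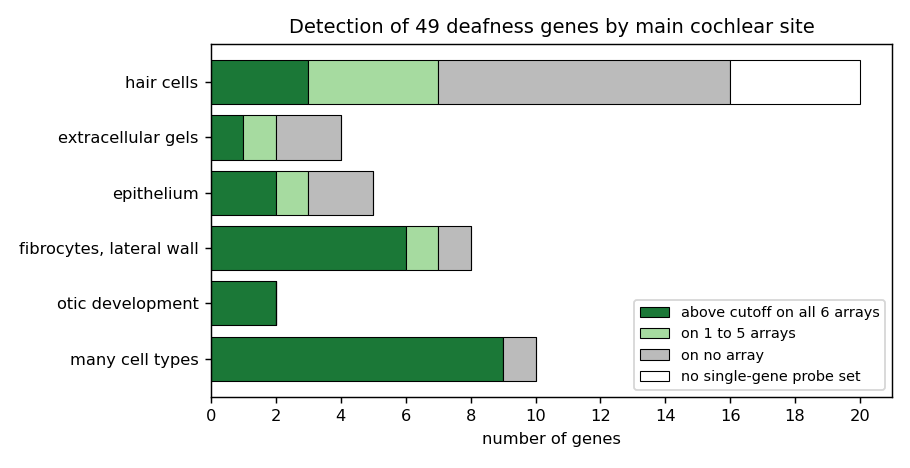
Number of hereditary deafness genes (x axis) by main cochlear site (y axis), with the bars divided by the number of arrays on which the gene's brightest probe set lay above the signal cutoff. Dark green holds 3 hair cell genes and 9 genes of many cell types; the white segment holds the 4 hair cell genes with no single-gene probe set.

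Upstream sequences are shown for 2 pairs of neighbouring genes, chosen by name among those that lay above the cutoff or were compared. The members of each pair share a stretch of chromosome and can be read side by side. Other neighbours among the deafness genes were not searched for. Ush1c and Otog lie head to head, with starts 2497 bases apart, and Gjb2 and Gjb6 lie on the same strand with starts 28909 bases apart. The RefSeq gene table places 0 whole genes between the members of either pair. Each sequence is the 250 bases before the gene's start in RefSeq, build GRCm38.p6, read 5′ to 3′ along the gene's strand, and capitals mark GC boxes, the letters GGGCGG on either strand. Ush1c is at chr7:46238491-46238740 on the minus strand, Otog at chr7:46240737-46240986 on the plus strand, Gjb2 at chr14:57104703-57104952 on the minus strand and Gjb6 at chr14:57133612-57133861 on the minus strand.
Ush1c: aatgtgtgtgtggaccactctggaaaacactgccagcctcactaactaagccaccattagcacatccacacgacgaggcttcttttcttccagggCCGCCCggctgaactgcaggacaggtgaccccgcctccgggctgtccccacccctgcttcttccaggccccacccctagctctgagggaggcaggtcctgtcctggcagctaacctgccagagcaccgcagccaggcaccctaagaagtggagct
Otog: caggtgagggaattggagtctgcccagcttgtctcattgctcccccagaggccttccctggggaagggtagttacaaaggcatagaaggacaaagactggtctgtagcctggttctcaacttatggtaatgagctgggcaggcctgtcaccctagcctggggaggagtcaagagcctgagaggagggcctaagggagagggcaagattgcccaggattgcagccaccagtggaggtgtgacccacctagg
Gjb2: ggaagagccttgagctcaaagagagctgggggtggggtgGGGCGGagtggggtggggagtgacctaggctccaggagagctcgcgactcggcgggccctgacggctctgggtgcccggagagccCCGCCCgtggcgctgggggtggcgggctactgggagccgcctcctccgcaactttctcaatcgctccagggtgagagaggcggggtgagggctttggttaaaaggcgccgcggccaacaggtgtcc
Gjb6: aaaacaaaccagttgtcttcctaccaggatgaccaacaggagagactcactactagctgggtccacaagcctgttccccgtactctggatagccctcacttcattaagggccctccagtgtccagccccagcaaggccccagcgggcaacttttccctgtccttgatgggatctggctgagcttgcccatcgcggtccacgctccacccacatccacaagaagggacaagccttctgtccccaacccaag
The Gjb2 sequence is the richest in G and C, at 69.2%, and holds 2 GC boxes, which begin at positions -211 and -126 from the gene's start. Ush1c has 61.2% G and C and 1 GC box, at -155. Otog, at 57.2%, and Gjb6, at 56.8%, have none. The letters CCAAT, searched on both strands, occur once, in Otog at -239, and TATAAA was found in none of the 4. Of 32851 upstream sequences of the same length in the table, 32.7% hold a GC box, 33.8% CCAAT and 12.4% TATAAA. A table entry was found for 41 of the 49 genes.

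The hair cell genes above the cutoff on all arrays were Myo6, Ush1c and Lhfpl5. Myo6 encodes an unconventional myosin that walks towards the minus end of actin filaments and anchors the base of the stereocilia. It read 9.08, 9.39 and 9.27 on the noise-exposed arrays and 9.20, 9.41 and 9.12 on the unexposed arrays, so the groups covered the same range. Ush1c encodes harmonin, the scaffold that holds tip links to the actin core, and read 8.31, 8.00 and 8.03 with noise and 7.93, 7.86 and 7.77 without. Every noise-exposed array was above every unexposed one by a narrow margin, which did not hold once the arrays were rescaled by median centring or a second quantile normalisation. Lhfpl5, a membrane protein of the mechanotransduction complex, read 5.48, 5.27 and 4.84 with noise and 5.33, 5.65 and 5.65 without, and the groups overlapped. As single tissue samples were measured, fewer cells of a type and less RNA per cell cannot be told apart for any of these genes.

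The remaining hair cell genes were near or below the cutoff. Tmc1, a pore subunit of the transduction channel, read 4.79, 4.79 and 4.03 on the noise-exposed and 5.85, 4.28 and 5.42 on the unexposed arrays. The 2 highest values were those of the male mice, and 5 of 6 arrays were above the cutoff. This signal rests on 1 of 3 probe sets, since the others were below the cutoff on every array, with means of 3.12 and 2.99. Pcdh15, the lower strand of the tip link, was shown array by array for its wide spread, a choice made after its values were seen. It read 4.52, 4.89 and 4.89 with noise and 4.88, 3.73 and 5.49 without, so the lowest and the highest value were both unexposed. The other Pcdh15 probe sets were likewise below the cutoff on every array, with means of 3.40 and 2.83. Clrn1, a membrane protein lost in an Usher syndrome, had a mean of 4.14 ± 0.34 (SD, n = 6) and passed on 3 arrays, and the actin bundler Espn, at 4.02 ± 0.24, on 1. No array exceeded the cutoff for Otof, the calcium sensor of the hair cell synapse, for the stereocilia myosins Myo7a, Myo15 and Myo3a, for the outer hair cell motor Slc26a5, for the upper tip link Cdh23, for Strc, Gipc3 or the transcription factor Pou4f3. Their means ran from 2.72 for Gipc3 to 3.52 for Myo3a.

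Genes of the extracellular gels encode proteins of the tectorial membrane and the gels of the vestibular organs. Otoa, otoancorin, which attaches such gels to the cells beneath, was the one above the cutoff on all arrays. It read 5.11, 4.73 and 5.78 with noise and 4.77, 5.61 and 4.89 without, and the groups overlapped. Otog, otogelin, read 4.58, 5.01 and 5.23 with noise and 4.68, 4.24 and 3.21 without. All 3 noise-exposed arrays were above the cutoff and 1 of 3 unexposed arrays was, and the lowest noise-exposed value lay under the highest unexposed one. Tecta and Tectb, the tectorins, were above the cutoff on no array, with means of 4.03 ± 0.15 and 3.20 ± 0.31.

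Of the epithelial genes, Grhl2, a transcription factor of epithelial cells, stood out by its spread among the noise-exposed mice. It read 6.59, 5.42 and 8.06 there and 6.73, 6.58 and 6.75 on the unexposed arrays, so the highest and lowest of all values came from 1 group while the other group varied by less than 0.2. This signal rests on 1 of 4 probe sets, since the others were below the cutoff on every array, with means of 3.35, 3.08 and 2.86. Marveld2, tricellulin, which seals the corners where 3 cells meet, read 4.51, 4.41 and 4.49 with noise and 4.62, 4.59 and 4.73 without. Every noise-exposed value was below every unexposed value, all of them close to the cutoff. The serine protease Tmprss3 had a mean of 4.21 ± 0.57 and exceeded the cutoff on 2 arrays. The authors' deposited table, which covers 17 arrays including 11 from other series, gives it a mean of 5.58, an SD of 0.70 and a corrected p of 1 against a cutoff of 5.1. Cldn14, a tight junction protein, and Ildr1, a protein of tricellular junctions, were above the cutoff on no array.

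Coch, Gjb2 and Gjb6 were the brightest fibrocyte and lateral wall genes. Coch encodes cochlin, the matrix protein that spiral ligament and limbus fibrocytes secrete, and read 12.78, 12.59 and 12.57 with noise and 12.71, 12.34 and 12.61 without. Gjb2, a connexin, or gap junction subunit, whose mutations are a common cause of inherited deafness, read 11.93, 12.10 and 12.00 against 11.90, 12.02 and 11.99. In neither gene did the groups separate. Gjb6, a second connexin that joins it in mixed channels, read 9.38, 9.45 and 9.29 with noise and 9.24, 9.27 and 9.23 without, each noise-exposed array above each unexposed one, although not after either of those rescalings. The transcription factors Pou3f4 (mean 5.16 ± 0.34) and Esrrb (5.02 ± 0.41) and the thyroid hormone binding protein Crym (5.65 ± 0.36) were above the cutoff on all arrays. The growth factor Hgf was above it on none.

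Slc26a4, pendrin, the anion exchanger that secretes bicarbonate into the endolymph, had the widest spread of the 45 genes, with an SD of 1.18 over the 6 arrays. It read 5.89, 4.46 and 6.94 on the noise-exposed and 4.05, 4.01 and 5.66 on the unexposed arrays. Noise-exposed replicates 1 and 3 and unexposed replicate 3 were high, and 1 of 3 unexposed arrays was above the cutoff. Otos, otospiralin, a spiral ligament fibrocyte marker named after its values were seen, read 8.31, 8.82 and 10.66 with noise and 8.67, 8.61 and 9.80 without. It was highest on noise-exposed and unexposed replicates 3, like Slc26a4 within each group, but lowest of all on noise-exposed replicate 1, where Slc26a4 was second highest. Among the other markers on the joint list for spiral ligament and stria, Cldn11 read 10.79 to 10.99 on all arrays. It was also highest on replicate 3 of each group. Car3 was highest on noise-exposed replicate 3, at 10.62, but of the unexposed arrays lowest on replicate 3, at 10.21. Tbx18 had its lowest noise-exposed value, 7.40, on replicate 3. Of the 7 spiral ligament and stria markers 4 were above the cutoff on all arrays, while the strial genes Kcnq1, Kcne1 and Bsnd were below it on every array. Summed over all 7 of these markers, the linear signal was 3576 to 5423 with noise and 3626 to 4186 without. Both Slc26a4 and this sum were highest on noise-exposed replicate 3. The part of spiral ligament or stria tissue in the Slc26a4 values was not tested.

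**Figure D2:**
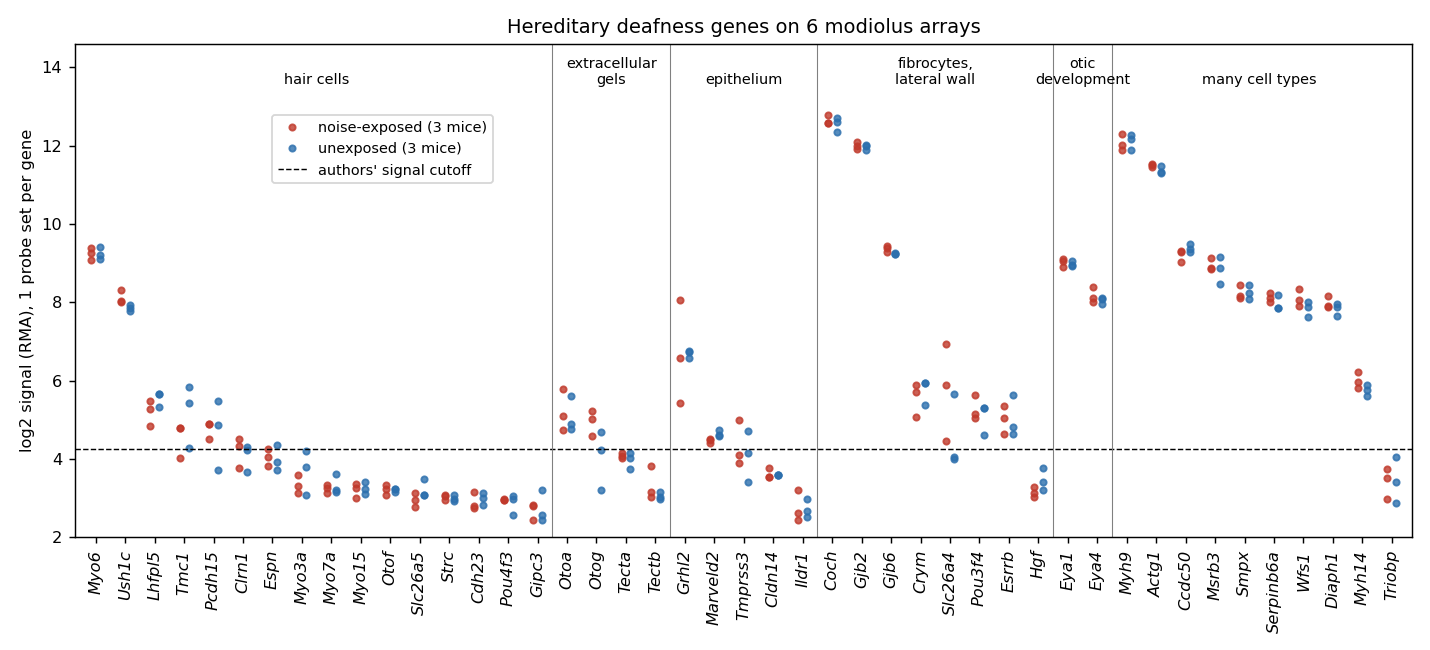
Log2 signal (y axis) of 45 hereditary deafness genes (x axis, grouped by main cochlear site), 1 probe set per gene, with 1 point per array, red for the 3 noise-exposed and blue for the 3 unexposed mice. The dashed line is the signal cutoff of 4.25, which most hair cell genes do not reach, and the points of Grhl2 and Slc26a4 are spread widely.

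Both otic development genes, transcriptional cofactors that work with homeobox factors when the ear forms, were above the cutoff throughout. Eya1 read 8.91, 9.11 and 9.05 with noise and 9.05, 8.95 and 8.93 without. Eya4 read 8.38, 8.01 and 8.10 against 8.08, 7.97 and 8.11. In both genes the exposed and unexposed ranges overlapped.

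Among the genes of many cell types, Myh9, the heavy chain of nonmuscle myosin IIA, read 12.02, 11.89 and 12.29 with noise and 11.88, 12.27 and 12.18 without. Actg1, cytoplasmic gamma actin, read 11.46, 11.52 and 11.53 against 11.34, 11.31 and 11.48. Ccdc50, a protein that binds ubiquitin, read 9.02, 9.31 and 9.28 against 9.48, 9.36 and 9.28. The groups overlapped in all of them, and these probe sets are of the type that can share probes with related transcripts. Wfs1, wolframin of the endoplasmic reticulum, read 8.34, 7.91 and 8.07 with noise and 7.62, 7.87 and 8.01 without. Myh14, the heavy chain of nonmuscle myosin IIC, read 6.23, 5.82 and 5.96 against 5.60, 5.76 and 5.90. Diaph1, a formin that lengthens actin filaments, read 8.16, 7.90 and 7.88 against 7.65, 7.87 and 7.95. Unexposed replicate 1 had the lowest value in these 3 genes, and again the groups overlapped.

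The methionine repair enzyme Msrb3 (mean 8.89 ± 0.25), the protease inhibitor Serpinb6a (8.05 ± 0.16) and Smpx (8.24 ± 0.17), a small protein of striated muscle that is also found in hair cells, were likewise above the cutoff on all arrays. Of the 7 skeletal muscle markers, Acta1, Ckm, Myh1, Myh4 and Tnnt3 were below the cutoff on every array, Ttn passed on 3 and Myl1 on all 6. The actin binding protein Triobp was the one gene of this group above the cutoff on no array.

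The comparison between noise-exposed and unexposed mice asked whether the levels of these genes differed 4 weeks after exposure. A gene was compared where its probe set lay above the cutoff on at least 3 of 6 arrays, which left 28 of the 45: 6 hair cell genes, 2 of the gels, 2 epithelial, 7 of fibrocytes and the lateral wall, 2 otic development and 9 of many cell types. None was called at an adjusted p under 0.05 by limma, with p adjusted over all 25200 probe sets compared, and the lowest adjusted p was 0.704. Over the whole array 0 probe sets were called, 0%, and the lowest adjusted p was 0.265. At an unadjusted p under 0.05 the brightest probe sets of the genes contributed 1 (Otog), against 1781 probe sets, 7.07%, on the array. With 3 mice a group the median standard error was 0.17 for the 28 genes and 0.18 for the 11858 genes compared. The fold changes (noise-exposed minus unexposed, log2) had a median of 0.10, compared with 0.07 for those 11858 genes. They were above 0 in 20 of 28, and 63.3% of all genes compared were above 0.

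Among the 23 genes above the cutoff throughout, the estimated fold change was under 0.3 in either direction in 22, with intervals of very different width. Intervals at the 95% level ran from -0.27 to 0.35 for Gjb2, from -0.27 to 0.45 for Coch, from -0.35 to 0.36 for Myo6 and from -0.27 to 0.36 for Eya1. For Actg1 the interval was -0.18 to 0.43 and for Smpx -0.41 to 0.37. Wider intervals were found in the same set, from -1.31 to 1.32 for Grhl2, -0.62 to 0.85 for Otoa, -0.79 to 0.40 for Crym and -0.71 to 0.68 for Esrrb, so that for Grhl2 a doubling in either direction lay inside the interval. These bounds do not show that the levels were equal, and smaller differences could not be seen with 3 mice per group. The remaining gene was Lhfpl5, with a fold change of -0.34, a standard error of 0.20 and an adjusted p of 0.728 (limma). Its value ran from -0.49, without noise-exposed replicate 1, to -0.13, with day of dissection in the model, and was -0.17 without noise-exposed replicate 3.

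The fold changes of largest size belonged to genes near the cutoff or with wide spread. Slc26a4 had 1.19 with a standard error of 0.66 and an adjusted p of 0.721 (limma), higher on 2 of 3 noise-exposed arrays than on any unexposed array. It was 0.60 without noise-exposed replicate 3 and 1.84 without replicate 2. Otog had 0.90 with a standard error of 0.37, a 95% interval of 0.05 to 1.74 and an adjusted p of 0.704. It was 0.48 without unexposed replicate 3, 1.22 without unexposed replicate 1 and 0.26 with day of dissection in the model. Over its alternatives the adjusted p by limma ran from 0.405 to 0.992. Tmc1 had -0.65 with a standard error of 0.41 and an adjusted p of 0.739, and with the mouse's sex in the model its value turned to 0.25. With 1 array left out it ran from -1.10, without unexposed replicate 2, to -0.32, without unexposed replicate 1, and it was -0.39 without noise-exposed replicate 3. Intervals this wide leave the direction of Slc26a4 and Tmc1 undetermined. The Otog interval lay just above 0 but was not adjusted for the number of probe sets compared. With an adjusted p of 0.704 by limma, its direction was not established either.

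**Figure D3:**
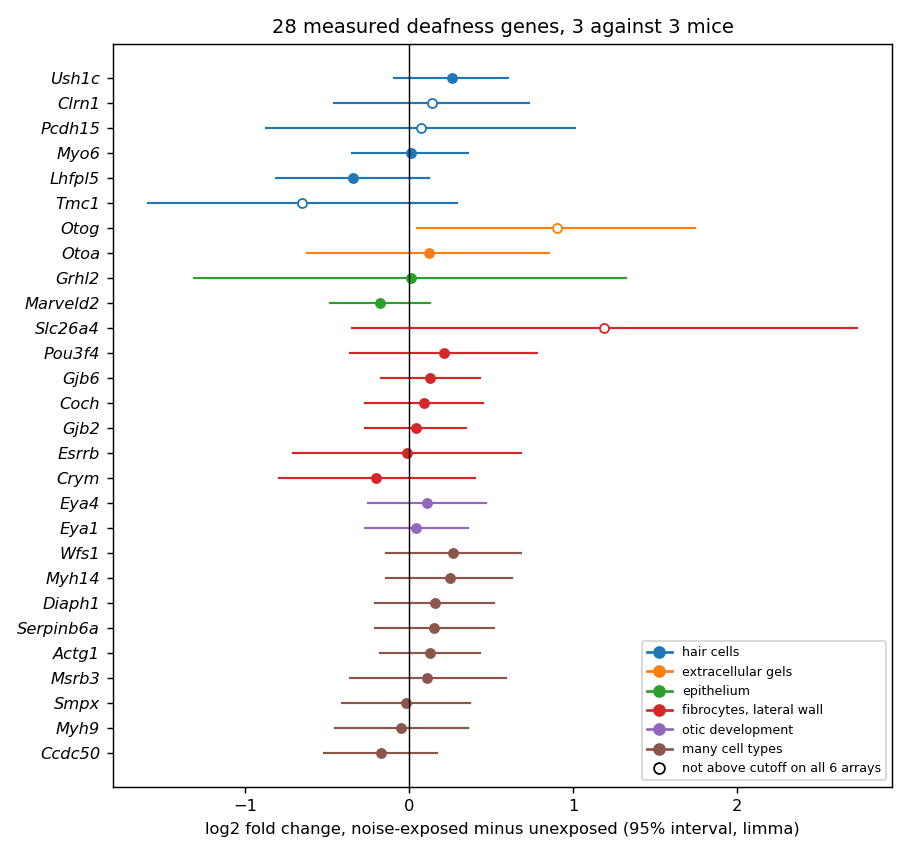
Log2 fold change, noise-exposed minus unexposed (x axis), of the 28 deafness genes compared (y axis), with 95% intervals from limma and 1 colour per cochlear site. Open points are the 5 genes not above the cutoff on all 6 arrays, among which are the longest fold changes, and the interval of Otog alone does not cross 0.

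Of the 28 genes, 3 had groups that did not overlap. Ush1c, with a fold change of 0.26, and Gjb6, with 0.13, were higher on every noise-exposed array, and Marveld2, with -0.18, was lower. Of the 11858 genes compared, 10.4% were higher in this sense and 3.41% lower, and of all probe sets 8.47% and 5.02%, so the count for deafness genes was near the background. Adjusted p by limma was 0.725 for Ush1c, 0.812 for Gjb6 and 0.764 for Marveld2. The separation depended on the scaling. With the arrays centred on their medians 0 genes were higher and 1, Marveld2, was lower. After a second quantile normalisation 0 were higher and 2, Marveld2 and Ccdc50, were lower. Ush1c and Gjb6 therefore lost their separation under both, while their fold changes stayed above 0. With 1 array left out the count of genes without overlap was between 4 and 9. It was 6 without noise-exposed replicate 1 or 2 or unexposed replicate 1, 5 without unexposed replicate 2 and 9 without unexposed replicate 3. Shares over all genes were computed only for the 6 arrays as deposited. The counts after rescaling or with fewer arrays therefore have no background beside them. The neighbours of Ush1c and Gjb6 on the chromosome were Otog, at 0.90 beside Ush1c, and Gjb2, at 0.04 beside Gjb6.

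By site, the median log2 fold change was 0.04 over 6 hair cell genes, 0.51 over the 2 gel genes, -0.08 over the 2 epithelial genes, 0.09 over 7 fibrocyte and lateral wall genes, 0.08 over the otic development pair and 0.13 over 9 genes of many cell types. The gel median rests on Otog and Otoa (0.12) alone. In the largest group the values ran from -0.17 for Ccdc50 to 0.27 for Wfs1, with an adjusted p of 0.79 and 0.746 by limma. Myh14 had 0.25 and Diaph1 0.16. Without noise-exposed replicate 1 these were 0.16 for Wfs1, 0.13 for Myh14, 0.07 for Diaph1 and -0.08 for Ccdc50, and without unexposed replicate 1 they were 0.16, 0.17, 0.07 and -0.12.

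The genes differed widely in their spread within groups. Residual standard deviations of Slc26a4 (1.10), Grhl2 (0.94), Tmc1 (0.65), Pcdh15 (0.65) and Otog (0.58) were each above the 95th percentile of all probe sets compared, 0.56. At the other end, Gjb6 (0.06), Gjb2 (0.07), Actg1 (0.07) and Marveld2 (0.07) were below the 5th percentile. Noise-exposed replicate 3 held the highest value of Slc26a4, Grhl2 and Otog, and in Tmc1 it held the lowest. Among all 28 genes it held the highest in 6 and the lowest in 3. Unexposed replicates 1 and 3 each held the highest in 2 and the lowest in 7.

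**Figure D4:**
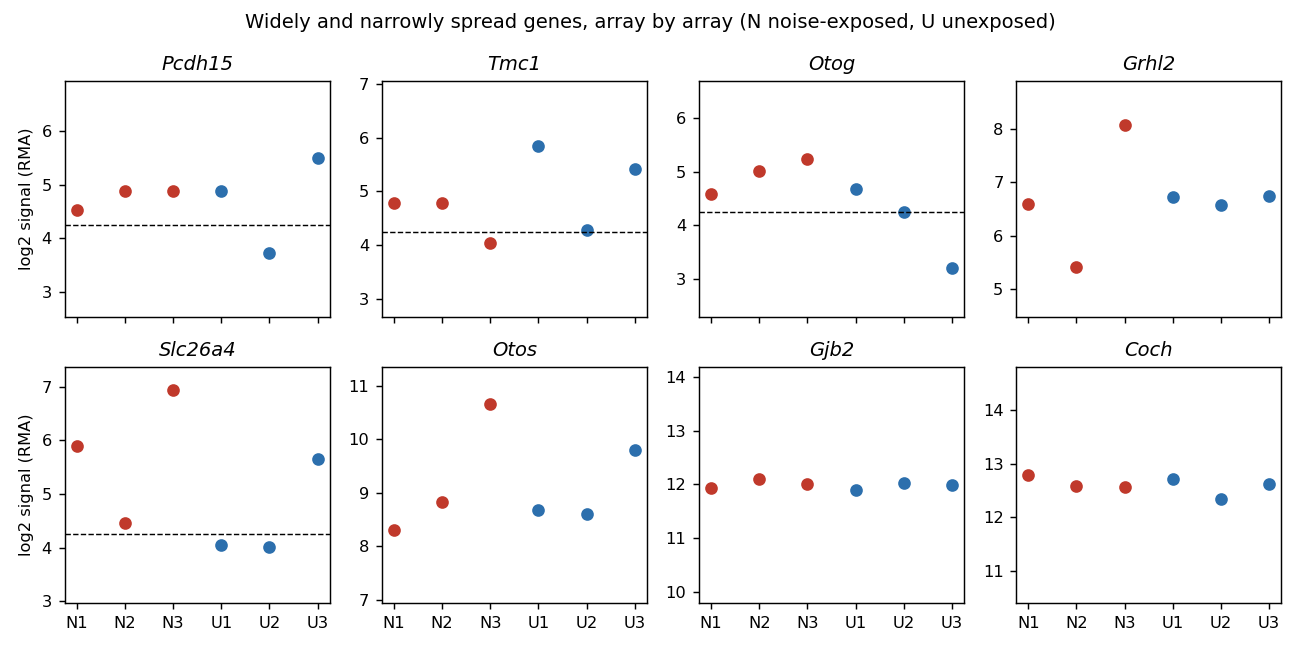
Log2 signal (y axis) on each array (x axis, N noise-exposed and U unexposed replicates 1 to 3) of the 5 deafness genes with the widest spread, of the fibrocyte marker Otos, and of Gjb2 and Coch, with panels of equal height in log2 units and the cutoff as a dashed line where it falls in range. Slc26a4 and Otos are both highest on N3 but differ on N1, where Otos is lowest, Grhl2 runs from 5.42 on N2 to 8.06 on N3, and Gjb2 and Coch are nearly flat.

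Other probe sets of the same genes served as a check. Of 8 genes with several probe sets compared, 2 had the same sign in all of them (Eya4 and Myh9) and 6 had opposite signs. Diaph1 differed most. Its second probe set read 4.67, 5.23 and 5.08 with noise and 5.88, 5.33 and 5.71 without, a fold change of -0.65 with an adjusted p of 0.667 by limma, against 0.16 on the brightest. Pou3f4 gave 0.21 and -0.34, Esrrb -0.01 and 0.21, and Ccdc50 -0.17 against 0.06 to 0.14. Myo6 gave 0.01 against -0.07 to 0.12, and Eya1 gave 0.04 and -0.0, both close to 0. The sign for these genes thus depended on the probe set, and which transcript each probe set covers was not analysed here.

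A wider list of 58 further deafness genes, of which 48 had a single-gene probe set, was set beside them. Above the cutoff on all arrays were 35 of 48, and 39 were compared, with 0 called by limma, 2 at an unadjusted p under 0.05 and a median log2 fold change of 0.02. By role, 13 of 13 genes of housekeeping processes passed on all arrays, 6 of 9 further hair cell genes, 5 of 7 collagen and gel genes, 5 of 6 pigment and neural crest genes, 4 of 5 transcription factors and 2 of 8 genes of ion and pH balance. Col11a1, a fibrillar collagen, had the lowest unadjusted p of them. It read 6.20, 6.10 and 6.38 with noise and 5.38, 5.93 and 5.56 without, with no overlap, a fold change of 0.60 and an adjusted p of 0.667. Col11a2, its partner chain, had 0.46 with an adjusted p of 0.711. The transcription factor Six5 read 5.40, 5.20 and 5.40 against 4.75, 5.14 and 4.64, a fold change of 0.49 with an adjusted p of 0.689, and the repressor Rest had -0.36.

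The other named genes of that wider list had adjusted p from 0.704 to 0.993 by limma. Cabp2, a calcium binding protein of hair cell synapses, had a fold change of 0.43, and Adgrv1, the large adhesion receptor of the ankle links, 0.48. Sox10, the glial and neural crest factor, had 0.46 and Pax3, another neural crest factor, -0.74. Polr1c, a polymerase subunit, had 0.35 and Gsdme, a gasdermin, -0.46. Kcnj10, a potassium channel of glia and the stria, had 0.18, with every noise-exposed array (8.34, 8.67 and 8.40) above every unexposed one (8.30, 8.32 and 8.25). The cation and chloride cotransporter Slc12a2 read 11.43 to 11.66 on the 6 arrays, and its groups overlapped.

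Day of dissection and sex varied within the unexposed group alone, since all noise-exposed mice were females dissected on day 1. Entering day in the model therefore sets the noise-exposed arrays against unexposed replicate 1, the one other array of day 1, and entering sex sets them against unexposed replicate 2, the one other female. With day the median fold change of the 28 genes was 0.12 and the lowest adjusted p 0.771. With sex these were 0.03 and 0.378. No gene was called in either fit. In either fit the single unexposed array is assumed to vary like the others.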

How the data were processed

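Messenger RNA was measured with 1 array per mouse in 3 noise-exposed and 3 unexposed mice, which the labels describe as separate animals. Per the labels' protocols, 8 to 21 ng of total RNA was reverse transcribed, linearly amplified and biotinylated. The authors deposited log2 signals per probe set, which their code file states were made by robust multi-array averaging of the 6 arrays together with Bioconductor release 2.1 under R 2.6.1. Its quantile normalization would hide a shift of most transcripts in 1 direction. In another deposited table, the p-value, corrected by Bonferroni's method, tests on 1 side whether a mean over 17 arrays exceeds 5.1.

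Of 45101 probe sets, 64 control probe sets were left out. The annotation gave 1 gene symbol for 34958, several for 932 and none for 9211, and 34754 matched the RefSeq gene table. The brightest probe set, by mean over 6 arrays, stood for each gene. Probe sets above 4.25 on at least 3 arrays, 25200 in all, entered a two-sided limma test (version 3.58.1, R 4.3.3; lmFit and eBayes) with Benjamini-Hochberg adjustment and a threshold of 0.05. The fit was tested on simulated data. The number of arrays limits the precision.

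The deafness genes, site groups and marker lists were chosen with earlier results of these data known. By rule, every gene above the cutoff on all arrays was named, with array values for the 3 brightest per site and the 10 of lowest unadjusted p; of the wider deafness lists the 2 of lowest unadjusted p, and of marker lists the brightest and that of lowest unadjusted p. Other marker genes, and other genes given by array, were named after their values were seen. Alternatives covered cutoff, normalization, filter, covariates, variance model, probe set and each array left out.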

Additional observations from a re-analysis of the deposited data

How the results depend on the processing

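In every alternative run, 0 deafness genes were called, with a lowest adjusted p by limma between 0.212, without unexposed replicate 2, and 0.992. Over all probe sets, leaving out 1 array gave 0 to 15 calls, with the 15 without unexposed replicate 2, and every other alternative gave 0. The count of hair cell genes above the cutoff was 6 when 3 of 6 arrays sufficed and 5 when the mean had to pass, instead of 3, and 3 to 4 with 1 array left out. All deafness genes above the cutoff numbered 17 at the authors' higher cutoff of 5.1, 28 when 3 of 6 arrays sufficed, 27 by the mean and 23 to 24 with 1 array left out. The median fold change was 0.04 with no filter, 0.03 with sex in the model and 0.05 to 0.10 with 1 array left out, lowest without unexposed replicate 3. Genes whose groups did not overlap numbered 1 with arrays centred on their medians (0 higher, 1 lower). After a second quantile normalisation they numbered 2 (0 higher and 2 lower, against 2 higher and 1 lower before). On the second brightest probe set they numbered 4 (2 higher and 2 lower), with Diaph1 among the lower. With 1 array left out they numbered 4 to 9, and an array fewer makes this easier to meet. The share over all genes under these settings was not computed. Of 175 alternative fold changes of the 11 named genes, 172 kept their sign and 3 turned: Tmc1 to 0.25 with sex in the model, Ccdc50 to 0.14 and Diaph1 to -0.65 on the second brightest probe set. Their cause was not tested. The other filters, the other variance model and the replicate block cannot alter a fold change. Part of the 172 thus kept their sign by design. Otog, Slc26a4 and Tmc1 gave no value when all 6 arrays had to pass.

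Same-numbered arrays of the 2 groups did not deviate together (correlations of 0.094, 0.025 and -0.038 across probe sets), so the numbers were not read as pairs. With the replicate number as a block the count of called genes was 0, with a lowest adjusted p of 0.686 and a median fold change of 0.10, and no call changed. Genes near the cutoff, such as Otog, Tmc1 and Clrn1, have signals close to background, which limits what their fold changes show.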

Other observations

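Marker lists of other cells of the modiolus showed which tissue accompanied the deafness genes. Of 5 bone markers all were above the cutoff on all 6 arrays, with Dmp1, the osteocyte matrix protein, at a mean of 10.93 ± 0.25 (SD, n = 6), and of these the osteoblast factor Sp7 had the lowest unadjusted p, with a log2 fold change of 0.34. All 5 central glia markers also passed, with the astrocyte water channel Aqp4 at 10.57 ± 0.35. The oligodendrocyte gene Mobp read 10.47, 10.74 and 10.74 on the noise-exposed and 9.52, 10.00 and 10.08 on the unexposed arrays, a fold change of 0.78 with an adjusted p of 0.667 by limma. Summed linear signals of the central glia list were 4197 to 5159 with noise and 2752 to 4448 without. Of 5 macrophage markers 4 passed on all arrays, Csf1r being the brightest, and Tyrobp had a fold change of 0.50 with an adjusted p of 0.667. No melanocyte marker passed on all arrays (0 of 5, Pmel on 3 arrays). No blood or marrow marker did either (0 of 5), although S100a9, the brightest, passed on 5 arrays, S100a8 on 4 and Cd79a on 2.

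Among the skeletal muscle markers, of which Myl1 was the brightest at 9.52 ± 0.24, the giant sarcomere protein Ttn read 4.00, 4.06 and 3.84 with noise and 5.25, 5.51 and 5.71 without. All noise-exposed arrays were below the cutoff and all unexposed ones above it. Its fold change of -1.52 had an unadjusted p of 2.1e-05 and an adjusted p of 0.265 by limma, the lowest adjusted p on the array. The supporting cell marker Lgr5 read 6.0, 6.27 and 5.71 against 6.58, 6.65 and 6.38, a fold change of -0.54 with an adjusted p of 0.669. The summed linear signal of the 5 supporting cell markers was 1928 to 2061 with noise and 2054 to 2198 without. Of these markers 4 were above the cutoff on all 6 arrays. Epyc, which passed on 5, read 5.3, 4.0 and 6.64 with noise and 5.74, 6.03 and 7.16 without. Among the noise-exposed arrays Epyc was lowest on replicate 2 and highest on replicate 3, as were Grhl2 and Slc26a4. Lgr5 ran the other way, so the sum does not show that each marker was steady. The part of organ of Corti tissue in these values was not tested. Hey2, the brightest supporting cell marker, had a mean of 10.13 ± 0.11. Among neuron markers Tubb3 had a fold change of 0.48, and among Schwann and satellite cell markers S100b had 0.32. Of the spiral ligament and stria markers Cldn11 was brightest at 10.88 ± 0.07, and Car3 had a fold change of 0.21. Adjusted p by limma was 0.667 for Tubb3, 0.704 for S100b and 0.768 for Car3.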
